A study of Mus musculus with 9 samples.

Results

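The genes described are the CDK inhibitors and the Rb family, which are 10 of the 55704 genes in the deposited expression table: Cdkn1a, Cdkn1b and Cdkn1c of the CIP/KIP family, Cdkn2a, Cdkn2b, Cdkn2c and Cdkn2d of the INK4 family, and Rb1, Rbl1 and Rbl2. They were found by their gene symbols in the GENCODE vM39 annotation of the mouse genome GRCm39, and all 10 were measured and tested. Bulk RNA-seq covered 9 libraries of neural stem cells (NSCs) from the subventricular zone of adult C57BL/6 mice aged 8 to 9 weeks, with 2 female and 2 male mice used for each isolation, grown as floating cultures and then attached for 16 to 18 h in bFGF and EGF at 20 ng/mL each. The bFGF/EGF-treated NSCs were collected at that point (day 0, n = 3). For the other groups the medium was then changed for 6 days to bFGF with BMP4 (bFGF/BMP4-treated NSCs, n = 3) or to BMP4 without bFGF and EGF (BMP4-treated NSCs, n = 3). Pooled animals, serial passages and growth outside the tissue limit all 3 groups as models of stem cells in the brain. The bFGF/EGF libraries serve as the control of both BMP4 media and were collected 6 days earlier, so that medium and time in culture cannot be told apart in either comparison with them; BMP4 and bFGF/BMP4 were collected on the same day. Whether replicates came from separate isolations is not stated, and p-values measure only the spread between these samples.

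The cell cycle enters DNA replication when cyclin D with Cdk4 or Cdk6, and then cyclin E with Cdk2, phosphorylate the Rb family. Unphosphorylated pRb (Rb1), p107 (Rbl1) and p130 (Rbl2) hold E2F factors inactive or turn E2F target genes off, and p107 and p130 do so with E2F4, a DP partner and the MuvB proteins. INK4 proteins bind Cdk4 and Cdk6, and CIP/KIP proteins bind cyclin and Cdk complexes more widely. In the adult subventricular zone these proteins are known for restraining the division of stem and progenitor cells, and Cdkn2a for its rise in ageing stem cells. Much of this control acts on the proteins, which RNA-seq does not measure.

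The libraries held 15892854 to 17419822 fragments on genes. Log2 expression correlated at 0.950 to 0.964 within groups and at 0.810 to 0.915 between groups, and BMP4 replicate 2 had the highest summed FPKM (the fragment number of a gene normalised for its length and for sequencing depth), 326302 against 256230 to 294652 in the others. The NSC factor Sox2 was at 121 to 202 FPKM in all libraries, whereas Nes, which encodes Nestin, was at 145 to 157 FPKM in bFGF/EGF, 2.96 to 3.94 in bFGF/BMP4 and 10.7 to 20.7 in BMP4. They are 2 of 10 NSC markers, of which 4 were called higher and 2 lower in BMP4 than in bFGF/EGF by the test described below. Among those higher were Gfap, which astrocytes also express (0.0600 to 0.134 FPKM in bFGF/EGF, 16.8 to 21.5 in bFGF/BMP4 and 2181 to 3038 in BMP4), Pax6 (log2 2.16) and Prom1 (1.68). In bFGF/BMP4 against bFGF/EGF, 4 of the 10 NSC markers were called higher and 5 lower. Of all genes, 29.6% were called higher and 25.3% lower in BMP4 than in bFGF/EGF. The shares in bFGF/BMP4 against bFGF/EGF were 25% and 23.6%. The summed level of 7 microglia markers stayed at or below 1.75 FPKM and that of 7 endothelial and mural markers at or below 1.80. The summed level of 5 ependymal markers was 58.0 to 70.1 FPKM in BMP4 against 7.87 to 12.4 elsewhere, that of 7 neuron markers was 107 to 188 against 17.1 to 35.5 (Tubb3 alone was at 101 to 179 in BMP4, whereas Rbfox3 was lower in BMP4 than in bFGF/BMP4 by -1.47 and Syt1 lower than in bFGF/EGF by -3.15), and that of 7 oligodendrocyte lineage markers was 24.6 to 30.7 against 9.39 to 17.2. Their part in the results was not tested. In bulk RNA, fewer cells with a transcript and less of it per cell cannot be told apart.

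**Figure D1:**
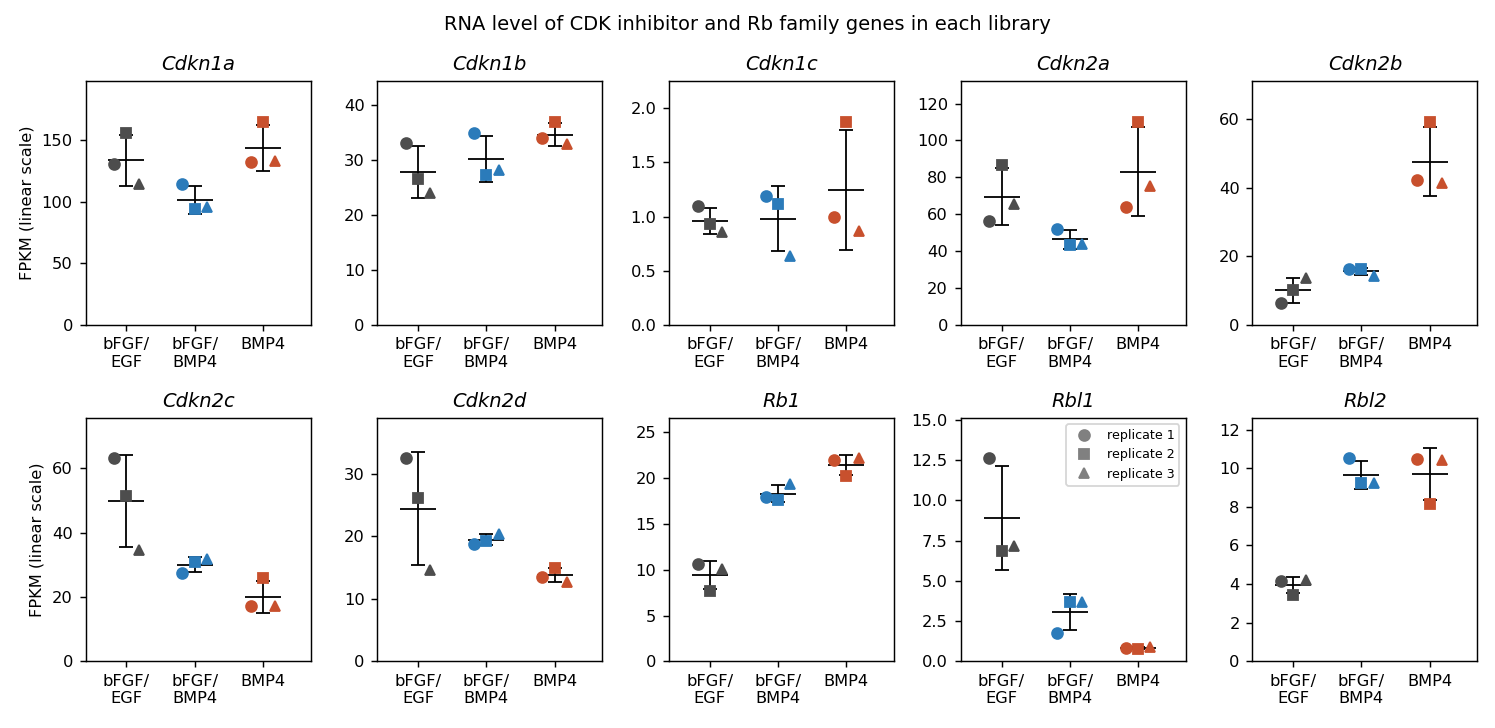
FPKM on a linear scale of each of the 10 genes in the 9 libraries, with a panel for each gene. Points are libraries, their shape is the replicate number, the horizontal bar is the group mean and the error bar its SD (n = 3). Rbl1 descended from 6.88 to 12.6 FPKM in bFGF/EGF to below 1 in all BMP4 libraries, Rb1 and Rbl2 were higher in all 6 libraries with BMP4, and Cdkn2b was above 40 FPKM in BMP4 alone.

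The first question was how the inhibitors and the Rb family differ between the 2 media that contain BMP4. A gene was called when its adjusted p was at most 0.05 (limma on log2(FPKM + 0.1), Benjamini-Hochberg adjustment over the 20207 genes tested). Log2 fold changes below are on that scale. Between BMP4- and bFGF/BMP4-treated NSCs, Cdkn1a, Cdkn2a and Cdkn2b were higher in BMP4, Rbl1 was lower, and 6 members did not pass. Among all genes tested, 12.2% were called higher and 8.89% lower. BMP4 against bFGF/EGF gave 3 members higher (Cdkn2b, Rb1 and Rbl2) and 3 lower (Cdkn2c, Cdkn2d and Rbl1), beside 29.6% and 25.3% of all genes. For bFGF/BMP4 against bFGF/EGF there were 3 higher (Cdkn2b, Rb1 and Rbl2) and 2 lower (Cdkn2c and Rbl1), beside 25% and 23.6% of all genes. Counting both directions, 4, 6 and 5 of the 10 members were called, beside 21.1%, 54.9% and 48.6% of all genes, so that the 2 shares against bFGF/EGF were near the background. With a difference of at least 2-fold required as well, 1 member was higher and 1 lower between the BMP4 media (8.41% and 5.14% of all genes), 3 and 2 in BMP4 against bFGF/EGF (21.3% and 15.4%) and 1 and 1 in bFGF/BMP4 against bFGF/EGF (16.5% and 14.1%). The last 2 comparisons share the bFGF/EGF libraries.

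**Figure D2:**
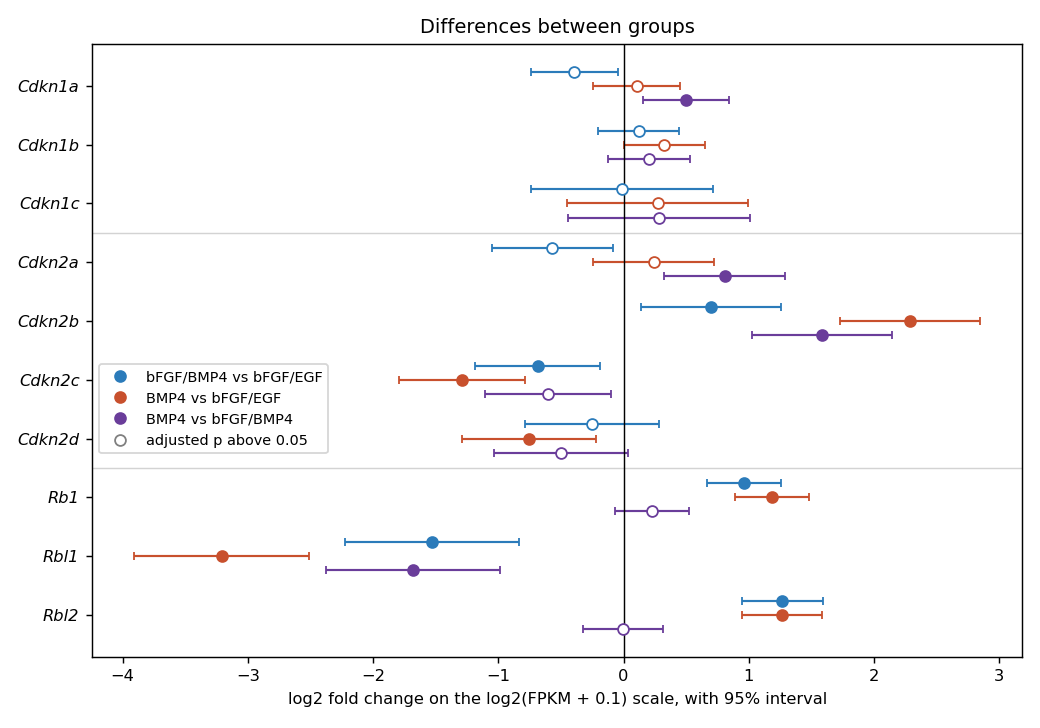
Log2 fold change of each gene on the log2(FPKM + 0.1) scale in the 3 comparisons (x axis), with the 95% interval from limma as the bar. Filled points have an adjusted p of at most 0.05 and open points do not. The largest fall is that of Rbl1 in BMP4 against bFGF/EGF (-3.21) and the largest rise that of Cdkn2b in the same comparison (2.29).

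Of the CIP/KIP genes, Cdkn1a (p21, the p53-induced inhibitor; chromosome 17, 29309936 to 29319701, plus strand) was the most abundant. Its levels were 131, 156 and 115 FPKM in bFGF/EGF, 114, 94.5 and 95.6 in bFGF/BMP4, and 133, 165 and 133 in BMP4. All bFGF/BMP4 libraries lay below all libraries of both other groups, and bFGF/EGF and BMP4 overlapped. Cdkn1a was 1.41-fold higher in BMP4 than in bFGF/BMP4 (log2 0.50, SE 0.15, limma adjusted p = 0.046). It was at 0.76 times the bFGF/EGF level in bFGF/BMP4, which did not pass (log2 -0.39, SE 0.15, adjusted p = 0.059), and BMP4 and bFGF/EGF differed by 0.11 with a 95% interval of -0.24 to 0.45 (adjusted p = 0.59). The BMP4 against bFGF/BMP4 call was lost without bFGF/EGF replicate 1, bFGF/BMP4 replicate 2 or 3, or BMP4 replicate 1, 2 or 3 (log2 0.40 to 0.55, adjusted p = 0.073 to 0.16), and also with median-ratio scaling (0.49, adjusted p = 0.055) or no filter on low values (adjusted p = 0.077). The call of bFGF/BMP4 against bFGF/EGF was gained without bFGF/EGF replicate 3 (-0.50, adjusted p = 0.032) or BMP4 replicate 2 (-0.39, adjusted p = 0.041), and with a mean FPKM of at least 1, TPM, median-ratio scaling or limma-voom (-0.51 to -0.39, adjusted p = 0.0063 to 0.049). Dino, a p53-induced non-coding RNA gene on the opposite strand, shares 504 bases (8.3%) with the exons of Cdkn1a and was at 2.60 to 6.05 FPKM.

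Cdkn1b (p27, which holds cells in G1; chromosome 6, 134897364 to 134902476, plus strand) stayed within a narrow range. Its levels were 33.0, 26.5 and 23.9 FPKM in bFGF/EGF, 34.9, 27.2 and 28.2 in bFGF/BMP4, and 34.0, 36.9 and 32.8 in BMP4. The groups overlapped in all 3 comparisons, and none passed the limma test. The difference of BMP4 from bFGF/BMP4 was 0.21 with a 95% interval of -0.12 to 0.53 (adjusted p = 0.39), and from bFGF/EGF 0.33 with an interval of -0.00 to 0.65 (adjusted p = 0.084). Without bFGF/EGF replicate 1 the latter was 0.46 and passed (adjusted p = 0.026), as it did with quantile normalization (0.39, adjusted p = 0.031).

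Cdkn1c (p57, an imprinted gene whose loss gives overgrowth, at chromosome 7, 143012069 to 143014806, minus strand) was detected in all libraries at a low level. Its levels were 1.10, 0.93 and 0.86 FPKM in bFGF/EGF, 1.19, 1.12 and 0.633 in bFGF/BMP4, and 0.997, 1.88 and 0.862 in BMP4. These rest on 19 to 62 fragments per library, and the groups overlapped throughout. The log2 differences were 0.28 (95% interval -0.44 to 1.01, limma adjusted p = 0.61) for BMP4 against bFGF/BMP4, 0.27 (adjusted p = 0.50) for BMP4 against bFGF/EGF and -0.01 (adjusted p = 0.99) for bFGF/BMP4 against bFGF/EGF. The sign of all 3 turned under at least 1 alternative. In BMP4 against bFGF/BMP4 it was -0.03 without BMP4 replicate 2, and in BMP4 against bFGF/EGF it was -0.04 without that library. In bFGF/BMP4 against bFGF/EGF it was 0.08 without bFGF/EGF replicate 1 and 0.25 without bFGF/BMP4 replicate 3. The CIP/KIP genes share little coding sequence, with 63.5% to 70.9% of aligned bases identical in pairs and no common run longer than 11 bases.

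The imprinted cluster around Cdkn1c held genes that were called and genes that were not. Of 10 cluster genes, Kcnq1 was below the filter on low values, Phlda2 was at 0 in all libraries and 8 were tested. Osbpl5, a lipid transfer protein gene, was at 5.55 to 6.18 FPKM in bFGF/BMP4 and 16.9 to 18.8 in BMP4 (log2 1.57, SE 0.15, limma adjusted p = 6.9e-05). Slc22a18, a transporter gene, was higher by 1.23 in the same comparison (adjusted p = 0.037) at levels of 0.115 to 0.545 FPKM, a call lost under 8 of 17 alternatives (adjusted p up to 0.12), with values of 0.36 to 1.62 over the processing alternatives. Cd81, a tetraspanin gene, and Tssc4 were higher in both BMP4 media than in bFGF/EGF (Cd81 by 1.46 in BMP4 and 1.07 in bFGF/BMP4, Tssc4 by 1.28 and 1.10), and Nap1l4, a histone chaperone gene, was lower in BMP4 than in bFGF/EGF by a log2 difference of -0.31 (adjusted p = 0.045), which was lost under 10 of 18 alternatives (adjusted p up to 0.12). Ascl2 was higher in BMP4 than in bFGF/EGF by 1.81 (adjusted p = 0.0042). Kcnq1ot1, the non-coding RNA of the cluster, and Tspan32 were called in no comparison. In all, 2 of the 8 genes tested were called higher and 0 lower in BMP4 against bFGF/BMP4, 5 and 1 in BMP4 against bFGF/EGF, and 3 and 1 in bFGF/BMP4 against bFGF/EGF, beside 21.1%, 54.9% and 48.6% of all genes called in either direction. In the last comparison the calls of Slc22a18 (1.01, adjusted p = 0.043) and Osbpl5 (-0.46, adjusted p = 0.029) were lost under 9 of 17 and 6 of 18 alternatives (adjusted p up to 0.17 and 0.086).

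Cdkn2a and Cdkn2b lie on the minus strand of chromosome 4 (89192708 to 89212890 and 89223204 to 89229276), separated by 10.3 kb. Cdkn2a makes p16Ink4a, a Cdk4 and Cdk6 inhibitor, and from an upstream first exon p19Arf, which stabilises p53; both transcripts enter a single gene value here. The stretches before both starts are shown because the value cannot be divided between them. They are from RefSeq, with the place of their exact match in GRCm39 and the minus strand read 5′ to 3′, and bases that GENCODE counts as exon were left off. Capitals mark an E2F motif.
Cdkn2a upstream start, chr4:89212891-89213106, minus strand: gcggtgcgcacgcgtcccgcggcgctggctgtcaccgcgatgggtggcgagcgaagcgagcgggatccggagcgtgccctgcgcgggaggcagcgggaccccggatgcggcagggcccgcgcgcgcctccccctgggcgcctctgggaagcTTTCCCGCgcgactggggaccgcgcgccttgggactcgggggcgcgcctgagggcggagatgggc
Cdkn2a downstream start, chr4:89200430-89200679, minus strand: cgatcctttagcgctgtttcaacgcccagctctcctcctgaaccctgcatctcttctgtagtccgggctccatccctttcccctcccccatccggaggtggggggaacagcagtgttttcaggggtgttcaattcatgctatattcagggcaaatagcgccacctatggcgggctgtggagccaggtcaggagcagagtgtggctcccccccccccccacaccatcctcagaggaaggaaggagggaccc
Cdkn2b start, chr4:89229277-89229519, minus strand: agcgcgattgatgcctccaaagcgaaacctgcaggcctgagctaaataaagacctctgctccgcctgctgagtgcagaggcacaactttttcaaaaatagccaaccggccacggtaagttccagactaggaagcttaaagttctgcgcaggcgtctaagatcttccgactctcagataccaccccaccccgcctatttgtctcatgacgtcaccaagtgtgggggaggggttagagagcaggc
The motif was searched on both strands as TTTCCCGC, TTTCGCGC, TTTGCCGC or TTTGGCGC in the 250 bases before each RefSeq start. It was found in 611 of 32851 windows (1.86%), and of the 8 members with an entry in that table only the windows of the upstream Cdkn2a start and of Rbl1 held it. Among the E2F target genes listed further on, 6 of 18 with an entry did. A match is only a match of letters.

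Cdkn2a was at 56.5, 86.7 and 65.5 FPKM in bFGF/EGF, 52.2, 43.1 and 43.7 in bFGF/BMP4, and 63.8, 110 and 75.3 in BMP4. As for Cdkn1a, the bFGF/BMP4 libraries were lower than all others, BMP4 replicate 2 was the highest, and bFGF/EGF and BMP4 overlapped. Cdkn2a was 1.75-fold higher in BMP4 than in bFGF/BMP4 (log2 0.81, SE 0.22, limma adjusted p = 0.024). The difference of bFGF/BMP4 from bFGF/EGF was -0.57 and did not pass (SE 0.22, adjusted p = 0.053), and that of BMP4 from bFGF/EGF was 0.24 with a 95% interval of -0.24 to 0.72 (adjusted p = 0.38). The call between the BMP4 media was lost without bFGF/BMP4 replicate 2 or 3 or BMP4 replicate 2 or 3, with log2 values of 0.59 to 0.86 and adjusted p = 0.058 to 0.092. The lower level in bFGF/BMP4 than in bFGF/EGF passed without bFGF/EGF replicate 1 (-0.71, adjusted p = 0.042), BMP4 replicate 1 (adjusted p = 0.049) or BMP4 replicate 2 (adjusted p = 0.022), and under 7 processing alternatives (-0.68 to -0.47, adjusted p = 0.010 to 0.044).

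Cdkn2b (p15, a Cdk4 and Cdk6 inhibitor that TGF-beta signalling is known to induce) followed another order, with bFGF/EGF lowest and BMP4 highest. It was at 6.30, 10.0 and 13.6 FPKM in bFGF/EGF, 16.2, 16.3 and 14.3 in bFGF/BMP4, and 42.2, 59.3 and 41.3 in BMP4. No 2 groups overlapped, but bFGF/EGF replicate 3 was within 1 FPKM of the lowest bFGF/BMP4 library. The log2 difference was 1.59 (SE 0.25, limma adjusted p = 0.0013) between the BMP4 media and 2.29 (SE 0.25, adjusted p = 3.4e-05) between BMP4 and bFGF/EGF, and both were called under all 18 alternatives. That of bFGF/BMP4 from bFGF/EGF was 0.70 (SE 0.25, adjusted p = 0.041). It was lost without bFGF/EGF replicate 1 (0.41, adjusted p = 0.13), and also without bFGF/EGF replicate 2, any 1 of the bFGF/BMP4 replicates, or BMP4 replicate 1 or 3 (0.67 to 0.76, adjusted p = 0.062 to 0.11). It was also lost with no filter on low values, on the TPM scale, with limma-voom and in the fit of the 2 groups alone (0.60 to 0.70, adjusted p = 0.056 to 0.069). Gm12610, a non-coding gene on the opposite strand that spans Cdkn2b without a shared exon, was at 1.15 to 2.02 FPKM.

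The coding sequences of Cdkn2a and Cdkn2b are the closest pair among the INK4 genes, with 74.7% of 384 aligned bases identical against 54.6% to 65.3% in the other pairs. Their longest common run is 23 bases, which bears on the counting because likeness of sequence is a way for fragments to be assigned to the wrong gene. Only the coding bases of a single transcript per gene were compared, which for Cdkn2a begins after the downstream start. The other INK4 pairs shared runs of 11 to 16 bases.

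The remaining INK4 genes, Cdkn2c and Cdkn2d, were lower in BMP4 than in bFGF/EGF. Cdkn2c (p18, an INK4 inhibitor of Cdk4 and Cdk6; chromosome 4, 109517957 to 109524386, minus strand) was at 63.0, 51.4 and 34.7 FPKM in bFGF/EGF, 27.4, 30.8 and 31.9 in bFGF/BMP4, and 17.3, 25.8 and 17.1 in BMP4. No groups overlapped, and the bFGF/EGF libraries were spread the most. It was 2.44-fold lower in BMP4 than in bFGF/EGF (log2 -1.29, SE 0.22, limma adjusted p = 0.00078) and 1.61-fold lower in bFGF/BMP4 than in bFGF/EGF (-0.69, SE 0.22, adjusted p = 0.028). The latter was lost without bFGF/EGF replicate 1 or 2 or any 1 of the bFGF/BMP4 replicates (-0.73 to -0.49, adjusted p = 0.056 to 0.11). Between the BMP4 media the difference was -0.60 (SE 0.22, adjusted p = 0.09), which passed without bFGF/EGF replicate 3 (adjusted p = 0.043) or BMP4 replicate 2 (-0.79, adjusted p = 0.041).

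Cdkn2d (p19Ink4d, the remaining INK4 inhibitor; chromosome 9, 21199700 to 21202727, minus strand) was at 32.5, 26.2 and 14.7 FPKM in bFGF/EGF, 18.8, 19.2 and 20.5 in bFGF/BMP4, and 13.5, 15.0 and 12.8 in BMP4. BMP4 lay below bFGF/BMP4, and bFGF/EGF replicate 3 lay within the BMP4 range. Cdkn2d was lower in BMP4 than in bFGF/EGF by a log2 difference of -0.75 (SE 0.24, limma adjusted p = 0.023), a call lost without bFGF/EGF replicate 1 or 2 or BMP4 replicate 1 or 3 (-0.74 to -0.51, adjusted p = 0.068 to 0.087). The differences of -0.50 between the BMP4 media (adjusted p = 0.18) and -0.25 of bFGF/BMP4 from bFGF/EGF (adjusted p = 0.42) did not pass. Without bFGF/EGF replicate 3 both did, with -0.50 (adjusted p = 0.016) and -0.58 (adjusted p = 0.0063).

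The bFGF/EGF libraries differed in proliferation genes as well. Mki67, the gene of the Ki67 antigen, was at 51.2, 19.8 and 31.2 FPKM in them, and Top2a, a topoisomerase of dividing cells, at 76.5, 30.7 and 38.0. Replicate 1 was the highest for these 2 genes and also for Cdkn1b, Cdkn1c, Cdkn2c, Cdkn2d, Rb1 and Rbl1. It was the lowest for Cdkn2a and Cdkn2b. Replicate 3 was above replicate 2 for Mki67, Top2a and Rbl1 but below it for Cdkn2c and Cdkn2d. Mki67 was at 7.22 to 13.6 FPKM in bFGF/BMP4 and 1.55 to 1.82 in BMP4. Whether the share of dividing cells sets the levels of these members was not tested.

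In the Rb family the most abundant gene outside bFGF/EGF replicate 1 was Rb1 (pRb, the retinoblastoma protein; chromosome 14, 73421113 to 73563507, minus strand). It was at 10.6, 7.68 and 10.0 FPKM in bFGF/EGF, 17.9, 17.6 and 19.4 in bFGF/BMP4, and 22.0, 20.2 and 22.1 in BMP4. The 3 groups did not overlap. Rb1 was 2.28-fold higher in BMP4 (log2 1.19, SE 0.13, limma adjusted p = 3.8e-05) and 1.94-fold higher in bFGF/BMP4 (0.96, SE 0.13, adjusted p = 0.00021) than in bFGF/EGF. Both calls were kept under all alternatives. The difference between the BMP4 media was 0.23, with a 95% interval of -0.07 to 0.52 (adjusted p = 0.28). Rcbtb2 and Lpar6, which lie on the opposite strand and share 4.0% and 3.4% of the exon bases of Rb1, were at 3.55 to 7.23 and 0.404 to 2.51 FPKM.

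Rbl2 (p130, the family member that prevails in resting cells; chromosome 8, 91796664 to 91850492, plus strand) was at like levels in both BMP4 media. It was at 4.18, 3.46 and 4.23 FPKM in bFGF/EGF, 10.5, 9.23 and 9.24 in bFGF/BMP4, and 10.5, 8.14 and 10.4 in BMP4. All libraries with BMP4 were above all bFGF/EGF libraries, and the BMP4 media overlapped. The log2 difference from bFGF/EGF was 1.27 for both media (SE 0.14, limma adjusted p = 4.3e-05 for BMP4 and 5.8e-05 for bFGF/BMP4). Between the media it was -0.00 with a 95% interval of -0.32 to 0.32 (adjusted p = 1). It was 0.06 without bFGF/BMP4 replicate 1 and 0.12 without BMP4 replicate 2. Aktip, a gene on the opposite strand, shares 4194 bases, or 35.4%, of the exons of Rbl2 in GENCODE. Aktip was at 5.92 to 6.37 FPKM in bFGF/EGF, 15.2 to 24.0 in bFGF/BMP4 and 12.6 to 16.6 in BMP4 (log2 1.26 and 1.65 against bFGF/EGF for BMP4 and bFGF/BMP4). Whether counting used the strand is not stated, so fragments of Rbl2 and Aktip from the shared bases cannot be told apart.

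Rbl1 (p107, the member known to rise in cycling cells; chromosome 2, 156987813 to 157046475, minus strand) had the largest differences of the 10 genes. It was at 12.6, 6.88 and 7.16 FPKM in bFGF/EGF, 1.77, 3.67 and 3.71 in bFGF/BMP4, and 0.843, 0.762 and 0.900 in BMP4. The 3 groups did not overlap, bFGF/EGF replicate 1 was the highest library and bFGF/BMP4 replicate 1 the lowest of its group. It was 9.25-fold lower in BMP4 than in bFGF/EGF (log2 -3.21, SE 0.31, limma adjusted p = 1.5e-05), 2.89-fold lower in bFGF/BMP4 than in bFGF/EGF (-1.53, SE 0.31, adjusted p = 0.0025) and 3.20-fold lower in BMP4 than in bFGF/BMP4 (-1.68, SE 0.31, adjusted p = 0.0035). All 3 calls were kept under all alternatives. Leaving out 1 library at a time gave -2.02 to -1.51 between the BMP4 media. The 250 bases before its RefSeq start hold the E2F letters TTTCGCGC with the first base 18 bases before that start. They are shown because no other member's start with an entry held the motif, apart from the upstream start of Cdkn2a with TTTCCCGC.
Rbl1 start, chr2:157046455-157046704 of GRCm39, minus strand: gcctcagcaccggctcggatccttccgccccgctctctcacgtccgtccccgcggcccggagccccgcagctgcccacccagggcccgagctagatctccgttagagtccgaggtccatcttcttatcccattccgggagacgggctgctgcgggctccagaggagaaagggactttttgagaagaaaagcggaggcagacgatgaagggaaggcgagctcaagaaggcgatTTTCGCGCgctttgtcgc
The last 21 bases, which include the capitals, belong to the first exon in GENCODE, whose start lies upstream of that in RefSeq. The coding sequences of the Rb family are 61.2% to 65.1% identical in pairs, with common runs of at most 14 bases.

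In the INK4 class and the Rb family, the summed level changed less than the shares of some of their genes. The sum of the INK4 genes was 154 ± 23 FPKM for bFGF/EGF, 111 ± 2.7 for bFGF/BMP4 and 165 ± 40 for BMP4 (SD, n = 3). In the same order, the share of Cdkn2b in that sum was 6.78% ± 3.4, 14.0% ± 0.98 and 29.1% ± 1.5, while the share of Cdkn2c was 32.1% ± 6.8, 27.0% ± 2.7 and 12.2% ± 0.49. Cdkn2a kept the largest mean share, 41.5% to 50.1%, with p16Ink4a and p19Arf counted together. The Rb family summed to 22.3 ± 4.7 FPKM for bFGF/EGF, 31.0 ± 1.2 for bFGF/BMP4 and 32.0 ± 2.5 for BMP4, and the share of Rbl1 was 39.2% ± 6.4, 9.78% ± 3.4 and 2.61% ± 0.078. The CIP/KIP class differed in this. Its sum was 163 ± 22 FPKM for bFGF/EGF, 133 ± 15 for bFGF/BMP4 and 179 ± 21 for BMP4. Cdkn1a held a mean share of 76.6% to 82.2% in each group. FPKM is scaled by gene length, so these shares compare levels between genes, within the error of the lengths used. Those of the Rb family also carry the overlap of Rbl2 with Aktip, whose fragments from the shared bases cannot be told apart.

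**Figure D3:**
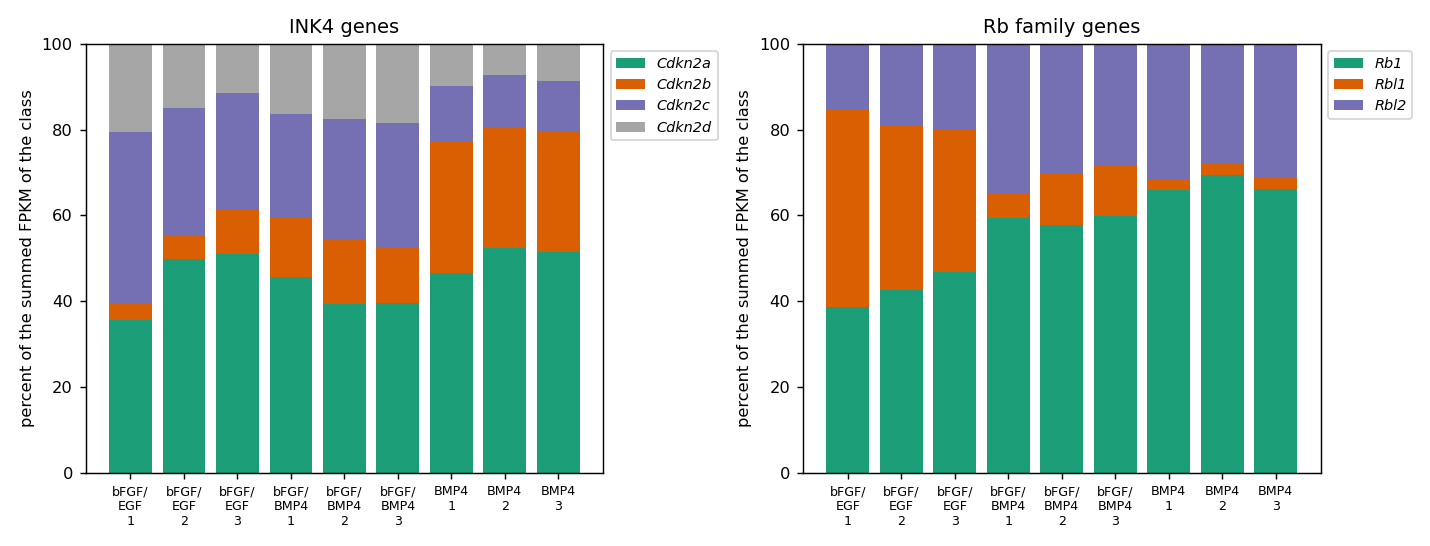
Share of each gene in the summed FPKM of its class (y axis, percent) for each library (x axis), with INK4 genes on the left and the Rb family on the right. The Cdkn2b share was largest in the 3 BMP4 libraries, and the Rbl1 share was smallest in them.

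The kinases that the inhibitors bind were lower in both BMP4 media than in bFGF/EGF, and the sums of Cdk4 and Cdk6 overlapped between the BMP4 media. Cdk4, Cdk6 and Cdk2 are named here after their values were seen. Cdk4 and Cdk6 summed to 149 to 205 FPKM in bFGF/EGF, 37.1 to 44.4 in bFGF/BMP4 and 32.9 to 41.0 in BMP4. Per library, the INK4 sum was 0.79 to 0.86 times that of Cdk4 and Cdk6 in bFGF/EGF, 2.49 to 3.09 times in bFGF/BMP4 and 4.04 to 5.13 times in BMP4, with no overlap between groups. The INK4 sum itself was 129 to 174, 109 to 114 and 137 to 210 FPKM in the same order. The ratio was thus higher than in bFGF/EGF mainly through the lower level of the kinases. The INK4 sum includes Cdkn2a, whose value also counts p19Arf, which is not an inhibitor of Cdk4 and Cdk6. The CIP/KIP sum was 2.72 to 4.99 times that of Cdk1 and Cdk2 in bFGF/EGF, 9.01 to 15.7 times in bFGF/BMP4 and 37.6 to 42.6 times in BMP4. In the same order, the CIP/KIP sum itself was 139 to 183, 123 to 150 and 167 to 204 FPKM. Cdk1 and Cdk2 summed to 27.9 to 60.7, 9.59 to 13.8 and 3.93 to 4.85 FPKM, so the ratio rose mainly with their fall. Rb1 and Rbl2 together were 1.17 to 1.99, 7.32 to 16.1 and 36.2 to 38.5 times Rbl1 in the same order. That ratio sets the members higher in both BMP4 media over the member lower in them, so its order restates those differences. It also carries the overlap of Rbl2 with Aktip. All 3 are ratios of RNA levels per length and say nothing of protein amounts.

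**Figure D4:**
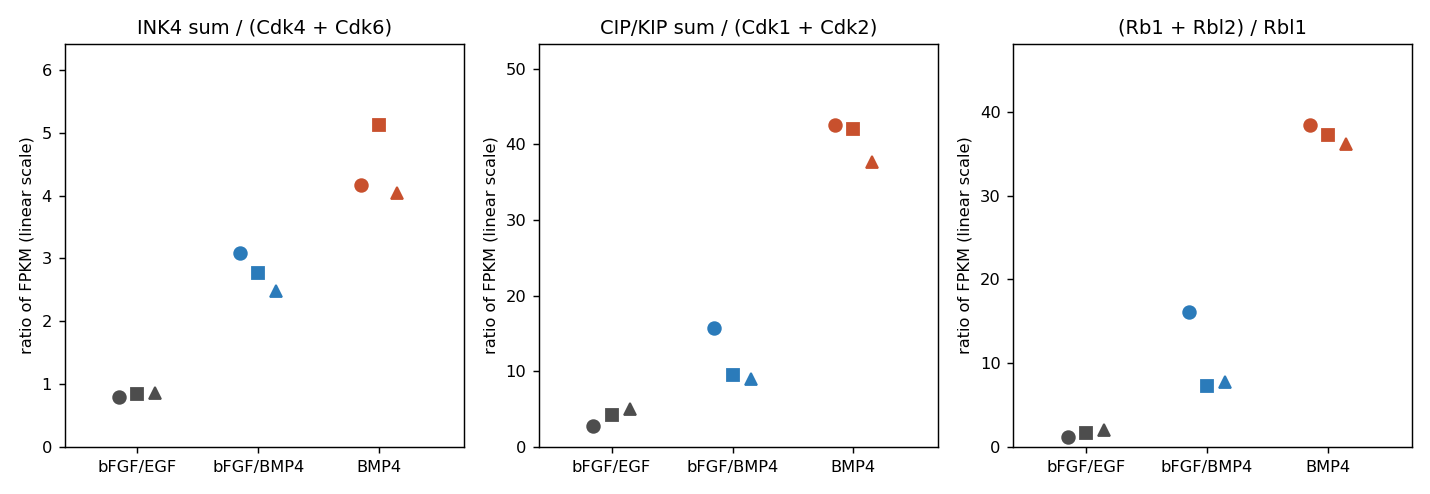
Ratios of FPKM in each library on a linear scale: the INK4 sum over Cdk4 and Cdk6 (left), the CIP/KIP sum over Cdk1 and Cdk2 (middle), and Rb1 and Rbl2 over Rbl1 (right). Points are libraries, 3 per group, with the shape giving the replicate number. In all 3 panels bFGF/EGF is lowest and BMP4 highest, with no overlap. The INK4 sum includes Cdkn2a, whose value also counts p19Arf. The right ratio sets members higher in both BMP4 media over the member lower in them.

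Genes that act with these members are described from lists, by the same test and against the same background. For every list below, that background was 12.2% of all genes higher and 8.89% lower in BMP4 than in bFGF/BMP4. It was 29.6% and 25.3% in BMP4 against bFGF/EGF, and 25% and 23.6% in bFGF/BMP4 against bFGF/EGF. Of 19 cyclins, Cdks and their direct activators or inhibitors, 12 were lower and 1 higher in BMP4 than in bFGF/BMP4, 16 lower and 0 higher in BMP4 than in bFGF/EGF, and 17 lower and 1 higher in bFGF/BMP4 than in bFGF/EGF. Their median log2 fold changes were -1.43, -2.38 and -1.48, beside medians of 0.00, 0.10 and 0.06 over all genes. Ccnb1 and Cdc25c, which drive mitosis, were lower in BMP4 than in bFGF/BMP4 by log2 differences of -2.66 and -2.29 (limma adjusted p = 0.00023 and 0.00034). Ccnd2, a D-type cyclin, was higher in bFGF/BMP4 than in bFGF/EGF by 1.72 (adjusted p = 0.00014), whereas Ccnd1 was lower there by -5.88 (adjusted p = 7.1e-08). The D-type cyclins together summed to 637 to 713 FPKM in bFGF/EGF, 437 to 602 in bFGF/BMP4 and 70.8 to 123 in BMP4.

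E2F1 to E2F5, with their DP partners, bind the Rb family, whereas E2F6, E2F7 and E2F8 act without it. The activators E2f1 and E2f2 and the repressors E2f7 and E2f8 of proliferating cells were lower in BMP4 than in bFGF/BMP4 by -1.48, -1.71, -2.24 and -1.72, and in bFGF/BMP4 than in bFGF/EGF by -1.98, -3.07, -2.25 and -2.19 (limma adjusted p at most 0.013 in each). With a pseudocount of 1 the E2f2 and E2f8 calls between the BMP4 media were lost (-0.64 and -0.88, adjusted p = 0.054 and 0.053). The E2f8 call was lost under 5 of 18 alternatives in all (limma adjusted p up to 0.061), and the E2f2 call under 1. E2f3, E2f4 and Tfdp1 were lower in both BMP4 media than in bFGF/EGF, by -1.07, -1.04 and -2.36 for BMP4, and did not pass between the BMP4 media. E2f6 was lower in BMP4 than in bFGF/BMP4 by -0.53 (adjusted p = 0.033, lost under 4 of 18 alternatives with adjusted p up to 0.13) and than in bFGF/EGF by -0.41 (adjusted p = 0.043, lost under 8 of 18 with adjusted p up to 0.14). E2f5, which binds p130, and Tfdp2 were called in no comparison, with levels of 9.18 to 11.4 and 4.45 to 7.61 FPKM. In all, 5 of 10 were lower in BMP4 than in bFGF/BMP4, 8 in BMP4 than in bFGF/EGF and 7 in bFGF/BMP4 than in bFGF/EGF, with 0 higher in any by limma. Without bFGF/BMP4 replicate 2 or 3 or BMP4 replicate 3 the first count was 3. Of all genes, 8.89%, 25.3% and 23.6% were called lower in the same order of comparisons.

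Of 7 genes of the MuvB core and its partners, 2 were lower in BMP4 than in bFGF/BMP4 (Foxm1 by -1.73 and Mybl2 by -1.39, both partners of MuvB in proliferating cells). The count was 1 without bFGF/BMP4 replicate 2 or 3 or BMP4 replicate 2 or 3. Against bFGF/EGF, 5 were lower and 1 higher in either BMP4 medium. Of all genes, 21.1% were called in either direction between the BMP4 media, 54.9% in BMP4 against bFGF/EGF and 48.6% in bFGF/BMP4 against bFGF/EGF. The core gene Lin9 was at 2.88 to 4.87 FPKM in bFGF/EGF and 0.663 to 0.878 in BMP4 (log2 -2.12, limma adjusted p = 5.4e-05). Lin52, another core gene and named here because it is the only one that was higher, was at 3.31 to 5.12 FPKM in bFGF/EGF and 11.4 to 14.6 in BMP4 (log2 1.65, adjusted p = 2.1e-05).

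All 22 E2F target genes of DNA replication were lower in BMP4 than in bFGF/EGF and in bFGF/BMP4 than in bFGF/EGF, with medians of -3.92 and -2.44. Between the BMP4 media 17 were lower in BMP4 (median -1.25) and 5 did not pass; the count was 8 or 9 without bFGF/BMP4 replicate 2 or 3 or BMP4 replicate 1 or 3. Mcm5, of the replicative helicase, was at 37.8 to 68.8 FPKM in bFGF/EGF, 5.27 to 11.3 in bFGF/BMP4 and 1.85 to 2.12 in BMP4. Uhrf1, which maintains DNA methylation, and Chaf1b, a histone chaperone gene, were lower in BMP4 than in bFGF/BMP4 by -1.92 and -2.06 (limma adjusted p = 0.0014 and 0.0013). Rbl1 is itself known as an E2F target and moved in the direction of this list in all 3 comparisons. Cdkn2a, whose upstream start also holds the E2F motif, was called lower in none of them. Whether E2F factors set the level of either gene was not tested.

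**Figure D5:**
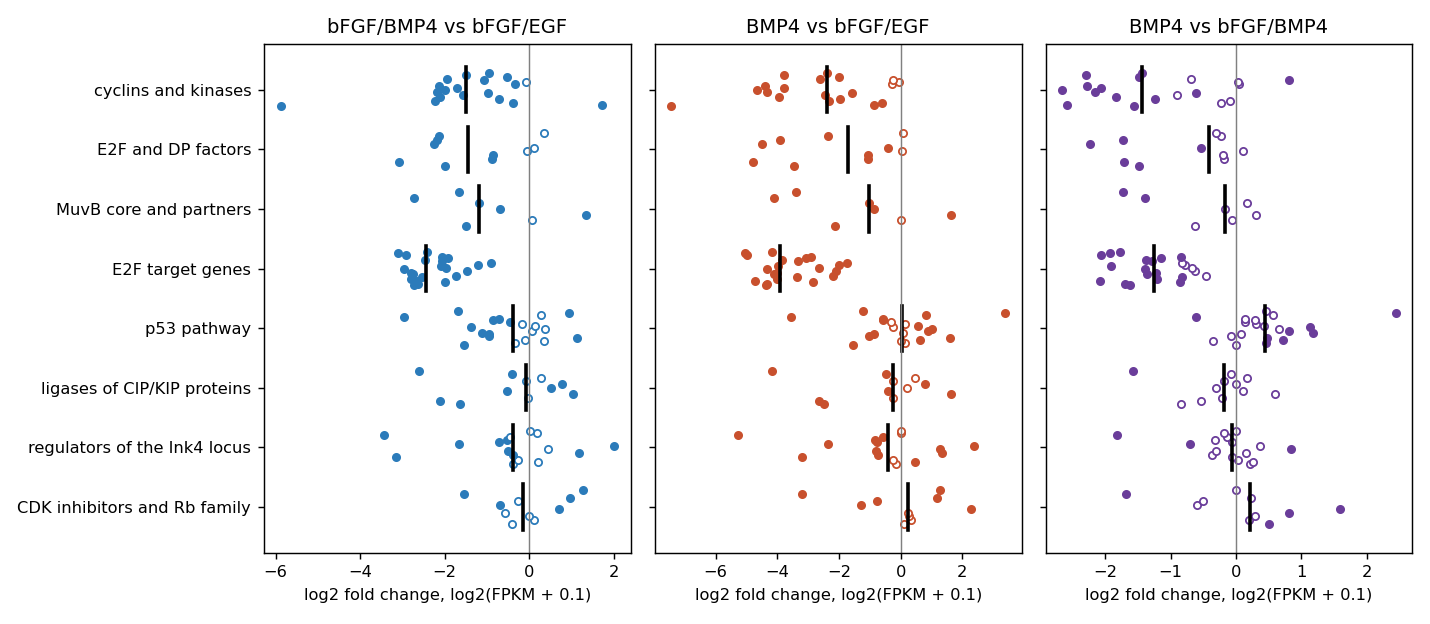
Log2 fold change on the log2(FPKM + 0.1) scale (x axis) of each gene of 7 lists and of the CDK inhibitors and Rb family (y axis), with a panel for each comparison. Filled points have an adjusted p of at most 0.05, open points do not, and the black line is the list's median. E2F target genes lie left of 0 in all panels, while the CDK inhibitors and Rb family lie on both sides.

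The p53 pathway was examined because Cdkn1a is a p53 target and p19Arf acts on p53. Of 20 genes, 7 were higher and 1 lower in BMP4 than in bFGF/BMP4, 7 higher and 7 lower in BMP4 than in bFGF/EGF, and 2 higher and 10 lower in bFGF/BMP4 than in bFGF/EGF. The first count was 4 without bFGF/BMP4 replicate 2 or 3 or BMP4 replicate 1 or 2. In the same order of comparisons, 21.1%, 54.9% and 48.6% of all genes were called in either direction. Trp53, named as the gene of p53, was lower by -1.54 in both BMP4 and bFGF/BMP4 than in bFGF/EGF (limma adjusted p = 3.7e-06 and 5.5e-06). Fas, a death receptor gene, was at 1.60 to 2.05 FPKM in bFGF/EGF, 3.44 to 3.73 in bFGF/BMP4 and 16.0 to 23.1 in BMP4 (log2 2.44 between the BMP4 media, limma adjusted p = 9.3e-06). Bbc3, a pro-apoptotic gene, and Btg2, an antiproliferative gene, had their lowest levels in bFGF/BMP4, as Cdkn1a did. With bFGF/BMP4, Bbc3 ranged over 4.85 to 8.38 FPKM, against 13.7 to 16.9 with BMP4 and a mean of 15.1 ± 3.21 with bFGF/EGF (SD, n = 3). Btg2 ranged over 5.32 to 6.35 FPKM with bFGF/BMP4, 11.3 to 14.5 with BMP4 and 12.2 to 19.2 with bFGF/EGF. They were higher in BMP4 than in bFGF/BMP4 by 1.18 and 1.13 (adjusted p = 0.0036 and 0.0011) and lower in bFGF/BMP4 than in bFGF/EGF by -1.12 and -1.37 (adjusted p = 0.002 and 0.00012). Plk2, a kinase gene, was lower in BMP4 than in bFGF/EGF by -3.57 and Sesn1, a stress-response gene, was higher by 1.61 (adjusted p = 3.9e-08 and 7.9e-06). Genes of this list were thus called in both directions against bFGF/EGF. Between the BMP4 media, where Cdkn1a was called, Trp53 was not (log2 0.003). Whether p53 sets the level of Cdkn1a was not tested.

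Skp2, Cks1b and Dtl encode parts of the ubiquitin ligases that degrade p27, p21 and p57. They were at 5.38 to 9.73, 30.0 to 55.6 and 5.70 to 7.16 FPKM in bFGF/EGF and at 1.06 to 1.40, 6.45 to 7.84 and 0.225 to 0.310 in BMP4 (log2 -2.48, -2.64 and -4.17, limma adjusted p = 4.4e-05, 9.3e-06 and 1.1e-06). Of the 11 ligase genes, 5 were lower and 2 higher in BMP4 than in bFGF/EGF, 5 lower and 3 higher in bFGF/BMP4 than in bFGF/EGF, and between the BMP4 media Dtl was the only one called (-1.57, adjusted p = 0.0022). Skp1 and Ubac1, named here because they were the 2 higher, differed by 1.63 and 0.79 in BMP4 against bFGF/EGF (limma adjusted p = 0.00011 and 0.00053). Cdkn1b RNA passed in no comparison. Whether the ligase genes bear on the p27 protein was not tested. Of all genes, 54.9%, 48.6% and 21.1% were called in either direction, in the order given for the ligase genes.

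Regulators of the Ink4 locus are mostly Polycomb proteins, which keep Cdkn2a and Cdkn2b silent in young cells. Of 16, 1 was higher and 2 lower in BMP4 than in bFGF/BMP4, 4 higher and 8 lower in BMP4 than in bFGF/EGF, and 2 higher and 7 lower in bFGF/BMP4 than in bFGF/EGF. Over all genes, 21.1%, 54.9% and 48.6% were called in either direction in these comparisons. Hmga2, a chromatin factor gene known to hold down Cdkn2a in young NSCs, was at 3.60 to 7.20 FPKM in bFGF/EGF, 0.156 to 0.558 in bFGF/BMP4 and below 0.1 in BMP4 (log2 -1.82 between the BMP4 media, limma adjusted p = 0.012; with a pseudocount of 1 it was -0.43 and did not pass, adjusted p = 0.18). Ezh2 and Cbx2, Polycomb genes, were lower in BMP4 than in bFGF/EGF by -2.35 and -3.21, and Ezh1, the paralog of Ezh2 in resting cells, was higher by 2.38 (adjusted p = 1.7e-06). Pcgf2 was higher in BMP4 than in bFGF/BMP4 by 0.85 (adjusted p = 0.016), which was lost under 2 of 18 alternatives (adjusted p up to 0.066). The counts between the BMP4 media rest on few genes: the higher one was 0 without BMP4 replicate 1 or 3, and the lower one was 0 without bFGF/BMP4 replicate 2 or 3 or BMP4 replicate 3 and 1 without bFGF/EGF replicate 3 or BMP4 replicate 1 or 2. Of the genes of the locus, Cdkn2a was not called between BMP4 and bFGF/EGF, whereas Cdkn2b was higher in BMP4 (log2 2.29, limma adjusted p = 3.4e-05). Whether the regulators set either level was not tested.

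The media themselves were checked by their target genes. All 13 BMP/SMAD targets were called higher in both BMP4 media than in bFGF/EGF, and between the media 2 were higher (Id3 by 1.43, Id4 by 1.31) and 1 lower (Smad9 by -0.55) in BMP4. Of 15 FGF/ERK targets, 11 were lower and 2 higher in BMP4 than in bFGF/BMP4 (Etv4 by -5.66, Dusp6 by -4.86), and 7 were lower in bFGF/BMP4 than in bFGF/EGF.

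The genes whose log2 levels followed the most abundant member of each class most closely over the 9 libraries, among 7457 protein-coding candidates, were Gpr19, Cstb and Psme1 for Cdkn1a (Pearson r = 0.988, 0.985 and 0.979), Dpcd, Kxd1 and Cstb for Cdkn2a (0.963, 0.963 and 0.955), and D5Ertd579e, Jak1 and Mindy2 for Rb1 (0.997, 0.992 and 0.991). Cstb, a cysteine protease inhibitor gene, appears for both Cdkn1a and Cdkn2a, and was at 13.2 to 18.7 FPKM in bFGF/BMP4, 19.2 to 29.7 in bFGF/EGF and 24.0 to 34.6 in BMP4. The 9 points fall into 3 groups and share library and depth, so these values are descriptions.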

How the data were processed

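The deposited table holds FPKM per gene and library. Per the submitters' processing notes, the authors used fastp 0.19.7, HISAT2 2.0.5, featureCounts 1.5.0-p3 and the build mm39; the annotation release, the use of strand and the scaling across libraries are not given in the sources used here. Whole fragment numbers followed from the deposited FPKM for 100% of 30860 genes above 0 (tolerance 0.02 to 0.1 fragments) and gave the depths. The filter kept genes whose mean FPKM reached 0.1, which were tested with limma 3.58.1 (R 4.3.3) with a trend, on log2(FPKM + 0.1), all 9 libraries in 1 fit, Benjamini-Hochberg adjustment and a threshold of 0.05. limma took the place of the count test of the study because the deposited values are FPKM. The paper states that raw counts are in its supplement, and these were not used here. Of 55414 Ensembl identifiers, 54749 matched GENCODE vM39. Biopython 1.88 aligned coding sequences, whose bases are not reported here. The script was tested on simulated data. Members, lists and tests were chosen with earlier results of these data known. Besides members, the text names up to 3 list genes with the largest change called in BMP4 against bFGF/BMP4 or bFGF/EGF, all E2F, DP and Cdkn1c-cluster genes, overlapping genes and the 3 genes most alike, unless stated. Alternatives were adding 1 in place of 0.1, a filter of 0 or 1 FPKM, TPM, median-ratio and quantile scaling, limma-voom on fragments, a replicate block, fits of 2 groups, a 2-fold threshold and each library left out.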

Additional observations from a re-analysis of the deposited data

How the results depend on the processing

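Of the 15 member comparisons called, 10 were called under all 18 alternatives and 5 were lost under at least 1; none changed direction. Of the 15 not called, 10 changed sign or passed under at least 1. With each library left out in turn, BMP4 against bFGF/BMP4 gave 1 to 3 members higher and 1 to 3 lower, BMP4 against bFGF/EGF 3 to 4 higher and 2 to 3 lower, and bFGF/BMP4 against bFGF/EGF 2 to 3 higher and 1 to 4 lower. Members lower in BMP4 than in bFGF/BMP4 numbered 2 on the TPM scale, with quantile normalization or with limma-voom (Cdkn2c joined Rbl1), and 3 in the fit of the 2 groups alone (Cdkn2d too). Members lower in bFGF/BMP4 than in bFGF/EGF numbered 4 with a mean FPKM of at least 1, TPM, median-ratio scaling or limma-voom. With a 2-fold threshold, 1 member was higher in BMP4 than in bFGF/BMP4, and 1 higher and 1 lower in bFGF/BMP4 than in bFGF/EGF; over all genes, 1039 were lower in BMP4 than in bFGF/BMP4, 3103 lower in BMP4 than in bFGF/EGF, and 3327 higher and 2847 lower in bFGF/BMP4 than in bFGF/EGF. Sign changes with no call on either side were those of Rbl2 between the BMP4 media (0.018 with limma-voom and -0.063 to 0.12 with a library left out) and of Cdkn1c: -0.030 to 0.49 with a library left out between the BMP4 media, -0.057 with quantile normalization and -0.042 to 0.48 with a library left out in BMP4 against bFGF/EGF, and 0.0034 with a pseudocount of 1 and -0.16 to 0.25 with a library left out in bFGF/BMP4 against bFGF/EGF. The cause was not tested. Quantile normalization moved the median of all genes in BMP4 against bFGF/EGF from 0.10 to -0.03. A replicate block left the members called at 3 higher and 1 lower, 3 and 3, and 3 and 3 in the same order of comparisons, the added call being Cdkn2a (-0.57, limma adjusted p = 0.041) in the last; replicate numbers share only a label, with correlations of same-numbered deviations of -0.08 to 0.12 and 1 of 9 above 0.1. The part of depth in the spread of Cdkn1c, at 19 to 62 fragments per library, was not tested.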
